A study of Homo sapiens with 6 samples.

Results

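The epidermal growth factor receptor (EGFR) system was followed through 10 genes in the transcriptomes of tumor core (TC) and tumor margin (TM). The genes were taken by symbol from a list of pathway members, with no threshold on their values, and comprised 2 receptors (EGFR and ERBB2), 4 ligands (AREG, EREG, HBEGF and TGFA) and 4 feedback inhibitors of the MAPK cascade (DUSP6, SPRY2, SPRY4 and SPRED1). All 10 were found among the 60671 annotated genes of the matrix, and all 10 were among the 13861 tested genes, those with 1 TPM or more in 3 or more samples. TPM is a transcript level that takes transcript length into account and adds up to one fixed total in a sample, so levels may be compared between genes.

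The samples were xenografts of MDA-MB-231, an established human triple-negative breast cancer line, grown from wild-type cells after orthotopic injection into the mammary fat pads of young adult female NSG mice, which lack lymphocytes and natural killer cells. TC and TM were each represented by 3 samples, neither zone received a further treatment, and the labels do not say which core and margin came from the same tumor. The line was derived from 1 patient and carries an activating mutation of BRAF, so that ERK is driven below the receptors. The tumors contained mouse stroma and vessels, and no step that separates mouse from human reads was described.

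In this pathway, ligands are made as membrane-bound precursors and are released by proteases of the ADAM family. Released ligand binds EGFR, which pairs with itself or with ERBB2, a family member with no known ligand of its own. The signal runs through RAS, RAF and MEK to the kinase ERK, and ERK in turn induces several of the ligands as well as DUSP6, a phosphatase that inactivates ERK, and the Sprouty and SPRED proteins, which act at the level of RAS and RAF. Transcripts of the feedback genes are therefore often read as a record of ERK output, while EGFR itself is commonly abundant in triple-negative breast cancer.

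The labelled cell type was first checked against its markers. VIM, KRT8 and KRT18 were abundant in all 6 samples (lowest value 356 TPM, for KRT8), whereas ESR1, PGR and CDH1 stayed at or under 0.36 TPM, although CDH1 is a usual marker of the epithelial cells that the labels name. ERBB3, also listed as scarce in this line, was at 0.82 to 3.28 TPM. The host markers were uneven. The summed level of 9 skeletal muscle markers was 4.02 to 8.04 TPM in TC, but 175, 473 and 2.74 TPM in TM replicates 1, 2 and 3, and that of 10 fibroblast markers was 65.8 to 226 TPM in TC against 477, 1006 and 91.0 TPM in the TM replicates. Of these muscle markers 3 were tested and 3 were lower in TC, as were 5 of 5 tested fibroblast markers. ATP2A1, however, passed the filter through its TM values alone, so its direction was fixed. Tested genes in general also leaned lower in TC (median log2 difference, TC minus TM, -0.14), and these marker counts were not tested. Markers of endothelium (7 genes, 3.77 to 4.99 TPM in TC and 3.93 to 7.02 in TM, with EMCN at 0), adipocytes (5 genes, 0.20 to 0.77 TPM over all samples, with ADIPOQ and LEP at 0) and erythroid cells (4 genes, 0.29 to 6.93 TPM, with HBA2 at 0) were low. The 7 macrophage markers summed to 95.2 to 106 TPM in TC and 102 to 108 in TM, of which CD68 gave at least 84.8 TPM in every sample, while PTPRC and CD163 stayed at or under 0.30 TPM. The 7 keratinocyte markers summed to 46.3 to 61.6 TPM in TC and 21.6 to 52.2 in TM, mostly from KRT10, with KRT1 at 0. Samples of bulk tissue cannot tell fewer cells of a type from less RNA per cell. Reads were aligned to the human genome hg38, so mouse transcripts may be counted only in part. A low host marker therefore does not show that its cell type was scarce. The part of host RNA in the differences between zones was not tested, and values without TM replicates 1 and 2 are given for some of the results.

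To show where the transcripts of the 3 members with the most to compare begin, reference sequence before their start sites is printed, credited to RefSeq on GRCh38.p14. The ligand genes AREG and EREG lie beside each other on chromosome 4 on the plus strand, and the 250 bases before each start (chr4:74444886-74445135 and chr4:74364895-74365144) are shown because both genes varied in the same samples. ERBB2 is shown by the last 30 bases before the 1 RefSeq start that was searched (chr17:39688064-39688093, plus strand) because it was the member whose zones did not overlap. That start lies inside the annotated gene, and all 250 bases before it are exonic in other transcripts of ERBB2 or in PGAP3. The gene has 22 annotated transcripts, and no other start of it was searched. Capitals mark matches, on either strand, to the CRE (TGACGTCA), the TATA box (TATAAA), the GC box (GGGCGG) and an ETS site (CCGGAAG).

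AREG: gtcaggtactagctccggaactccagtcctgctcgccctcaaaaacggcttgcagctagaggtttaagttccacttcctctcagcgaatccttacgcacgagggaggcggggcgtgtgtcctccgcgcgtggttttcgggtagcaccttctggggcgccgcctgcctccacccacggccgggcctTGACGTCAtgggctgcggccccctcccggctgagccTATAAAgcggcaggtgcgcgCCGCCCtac
EREG: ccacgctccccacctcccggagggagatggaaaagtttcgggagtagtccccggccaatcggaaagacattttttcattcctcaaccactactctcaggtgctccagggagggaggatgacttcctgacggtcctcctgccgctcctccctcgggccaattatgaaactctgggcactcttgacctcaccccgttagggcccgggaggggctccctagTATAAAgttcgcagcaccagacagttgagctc
ERBB2: tccaCTTCCGGagtaaCCGGAAGttcctgt

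AREG and EREG were the 2 members of 10 with a TATA box match in the 250 bases, which 10.7% of 35116 promoters of that length had. The CRE match of AREG, the letters bound by CREB, was found in 1.65% of promoters. ERBB2 held 2 ETS matches, where 1.25% of promoters held 2 or more, and an AP-1 match (TGANTCA) farther upstream, at 222 bases before the start (6.57% of promoters). In contrast, EGFR, HBEGF, TGFA, SPRY2, SPRY4 and SPRED1 had GC boxes and none of the other letters searched (42.6% of promoters had a GC box), and DUSP6 had no match to any of them. Several of these windows were themselves exonic in annotated transcripts, in all 250 bases for DUSP6 and SPRED1, 189 for TGFA and 170 for SPRY4. For EGFR and SPRY2 the bases just after the start used were not found in an annotated transcript. A match describes letters and not a bound site.

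The levels of the 10 genes were then ordered. DUSP6 was the highest of the 10 in each of 6 samples, with a mean over all samples of 207 TPM, above 95.4% of tested genes. SPRY4 (58.6 TPM), HBEGF (58.2 TPM) and EGFR (50.6 TPM) came next and exchanged places between samples, so that SPRY4 was above HBEGF in 4 of 6 samples and HBEGF above EGFR in 5 of 6. ERBB2 (29.7 TPM), EREG (21.6 TPM), SPRY2 (17.0 TPM) and AREG (16.4 TPM) followed by their means, with the same kind of exchange. EREG moved most, from above HBEGF in TC replicate 1 to below SPRED1 in TM replicate 3. Last by their means were SPRED1 (8.69 TPM), which AREG exceeded in 6 of 6 samples, and TGFA (3.76 TPM), the lowest of the 10 in each sample. EGFR exceeded ERBB2 in every sample.

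**Figure D1:**
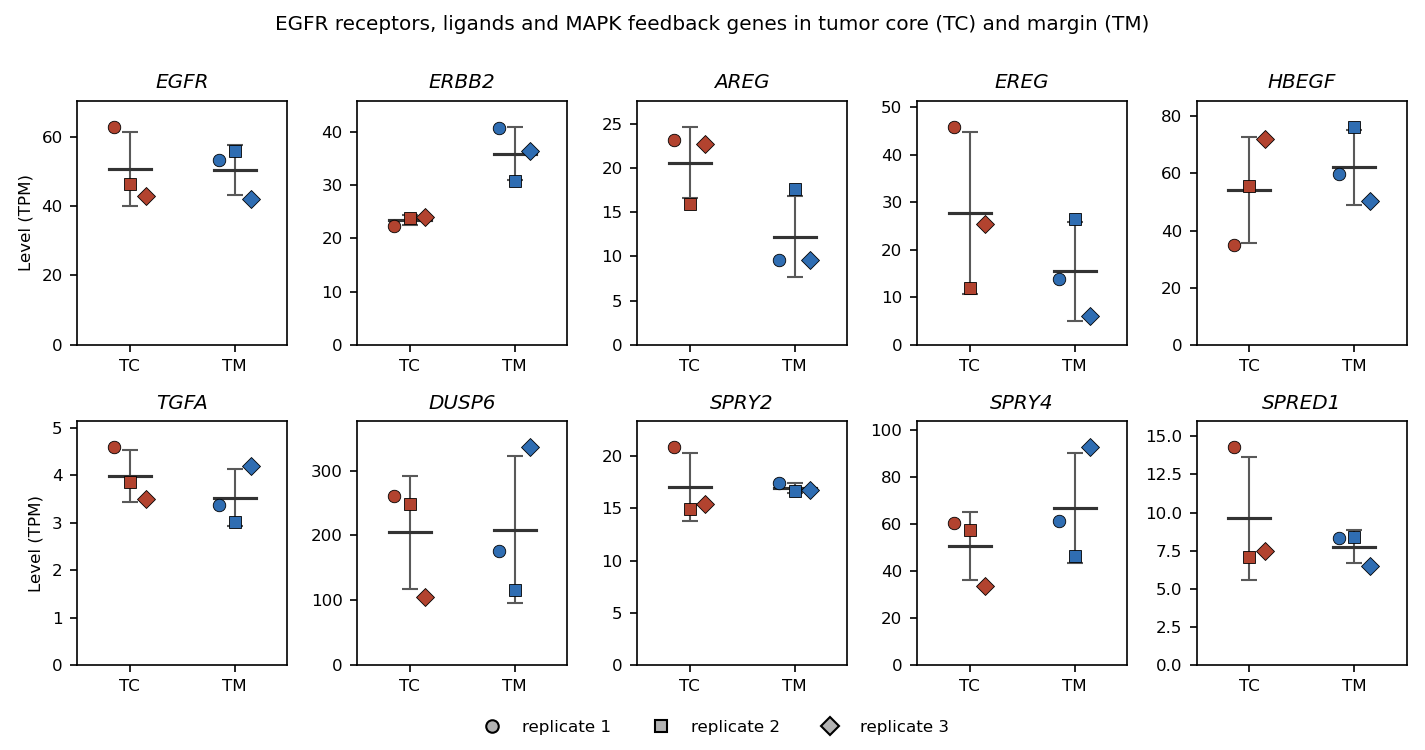
Level (TPM, linear axes starting at 0) of each of the 10 genes in the 3 TC samples (red) and the 3 TM samples (blue); circles, squares and diamonds are replicates 1, 2 and 3, horizontal lines are means and bars are SD. The zones are separated in ERBB2, with TC at 22.3 to 24.1 and TM at 30.8 to 40.7 TPM, and overlap in the other 9 genes.

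Next, TC was compared with TM to ask which of these genes differed between the zones. None of the 10 passed the adjusted threshold of 0.05 (limma, smallest adjusted p = 0.128), which 0.137% of all tested genes passed, 0.00721% higher and 0.13% lower in TC. Before adjustment 2 of the 10 were under 0.05, ERBB2, which was lower in TC, and AREG, which was higher, where 16.2% of tested genes passed that level, 14.2% lower and 1.93% higher in TC. In all, 4 members were higher and 6 lower in TC. The median log2 difference (TC minus TM, on the scale of log2(TPM + 1), which understates changes of low genes) was -0.0015 for the 10 members and -0.14 for all tested genes. That general shift depended on scaling, since it was 0.050 after median-of-ratios rescaling and 0.014 after quantile normalization, and differences between zones are best read against it.

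Among the receptors, ERBB2 (ENSG00000141736; chromosome 17, 39687914 to 39730426, plus strand; positions here are those of GENCODE v29 on GRCh38) was at 22.3, 23.9 and 24.1 TPM in TC replicates 1, 2 and 3. In TM its values were 40.7, 30.8 and 36.4 TPM. Every TM sample was thus above every TC sample, a separation that 22.2% of tested genes showed, 18.9% in this direction. The TM mean of 36.0 ± 4.97 TPM was 1.54 times the TC mean of 23.4 ± 0.968 TPM (SD, n = 3), and the log2 difference was -0.59 with SE 0.16 (adjusted p = 0.128 by limma). The 95% interval of the difference was -0.95 to -0.23, and the difference kept its sign in 16 of 16 alternative analyses, at -0.39 after median-of-ratios rescaling. TM replicate 3, whose summed muscle and summed fibroblast markers were within or below the TC range, was also above all TC samples. Single markers of that sample (PDGFRB, FAP and ATP2A1) were above all TC samples too. Without TM replicates 1 and 2 the log2 difference of ERBB2 was -0.62. The gene overlaps MIEN1 and PGAP3 on the opposite strand, and it was not stated whether read strand was used to assign reads. MIEN1 was at 39.2, 41.7 and 46.3 TPM in TC and at 40.9, 37.0 and 36.4 TPM in TM, with overlapping zones. PGAP3 was at 9.26, 7.49 and 8.48 TPM in TC and at 9.21, 10.8 and 10.5 TPM in TM, where 2 of 3 TM samples were above all TC samples. The part of opposite-strand reads in the values of ERBB2 was not tested.

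EGFR (ENSG00000146648; chromosome 7, 55019021 to 55211628, plus strand), the receptor that binds all 4 ligands, was at 62.8, 46.3 and 43.0 TPM in TC and at 53.3, 56.0 and 42.1 TPM in TM. The zones overlapped throughout, and the highest and lowest samples differed by 1.49 times. The means were 50.7 ± 10.6 and 50.4 ± 7.36 TPM (SD, n = 3), and the log2 difference was -0.0012 with SE 0.19 (adjusted p = 0.998 by limma). The 95% interval ran from -0.43 to 0.43, so a change of up to about that size in either direction was not excluded by these samples. The sign moved with the scaling, as the log2 difference was 0.21 after median-of-ratios rescaling and 0.14 after quantile normalization. The ratio of EGFR to ERBB2, which is free of the scaling of a sample, was 2.82, 1.94 and 1.79 in the TC replicates, and in the TM replicates it was 1.31, 1.82 and 1.16. Its 2 highest values were thus both from TC and its 2 lowest both from TM, with TC replicate 3 just below TM replicate 2.

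The ligands were examined by their place in the family. Amphiregulin (AREG, ENSG00000109321; chromosome 4, 74445134 to 74455009), a ligand of lower affinity for EGFR, was at 23.1, 16.0 and 22.7 TPM in TC. In TM it was at 9.54, 17.6 and 9.59 TPM. TC replicates 1 and 3 were above all TM samples, TM replicates 1 and 3 were below all TC samples, and the replicates numbered 2 overlapped. The means were 20.6 ± 4.03 and 12.2 ± 4.64 TPM (SD, n = 3, 1.68-fold higher in TC), and the log2 difference was 0.74 with SE 0.27 (adjusted p = 0.229 by limma). The log2 difference was positive in 16 of 16 alternatives and ranged from 0.60 without TM replicate 1 to 1.01 without TM replicate 2. Its unadjusted p-value was above 0.05 (up to 0.0793) when TC replicate 1, TC replicate 3, TM replicate 1 or TM replicate 3 was left out.

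Epiregulin (EREG, ENSG00000124882; chromosome 4, 74365143 to 74388751), its neighbor, which also signals through ERBB4, was at 45.8, 11.9 and 25.4 TPM in TC and at 13.7, 26.5 and 6.0 TPM in TM. Its highest sample, TC replicate 1, was 7.63 times its lowest, TM replicate 3, the widest range of the 10 genes. The values were spread through both zones, with TM replicate 2 above TC replicate 3. The means were 27.7 ± 17.1 and 15.4 ± 10.4 TPM (SD, n = 3), and the log2 difference was 0.83 with SE 0.57 (adjusted p = 0.540 by limma). It was 0.32 without TM replicate 3 and 0.38 without TC replicate 1, but 1.31 without TC replicate 2 or TM replicate 2 and 1.85 without TM replicates 1 and 2. The means differed by less than the SD within TC. EREG and AREG shared their 3 highest samples, TC replicates 1 and 3 and TM replicate 2, as did 3.23% of tested genes. This order was noticed in the values and was not tested.

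HBEGF (ENSG00000113070; chromosome 5, 140332843 to 140346631, minus strand), the heparin-binding ligand, was the most abundant ligand in 5 of 6 samples. It was at 35.0, 55.7 and 72.1 TPM in TC and at 59.7, 76.2 and 50.3 TPM in TM, with wide overlap (log2 difference -0.23 with SE 0.27, adjusted p = 0.738 by limma). Its lowest value was in TC replicate 1, the sample in which EREG and AREG were highest. TGFA (ENSG00000163235; chromosome 2, 70447280 to 70554193, minus strand), the classical autocrine ligand, was low at 4.59, 3.86 and 3.50 TPM in TC and 3.38, 3.01 and 4.19 TPM in TM (log2 difference 0.14 with SE 0.23, adjusted p = 0.818 by limma).

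The balance among the ligands was then described within each sample. AREG and EREG together made up 63.5%, 31.9% and 38.9% of the summed TPM of the 4 ligands in TC replicates 1, 2 and 3, and 26.9%, 35.8% and 22.3% in the TM replicates. TC replicates 1 and 3 had the largest shares, while TC replicate 2 lay within the TM range. The summed level of the 4 ligands was 108, 87.4 and 124 TPM in TC and 86.4, 123 and 70.1 TPM in TM, so the zones overlapped in the total as well.

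**Figure D2:**
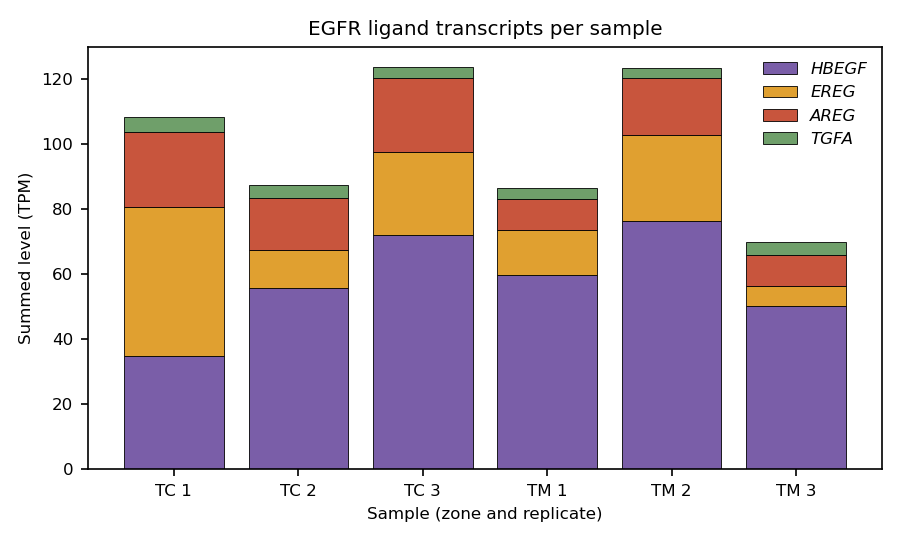
Summed level (TPM) of HBEGF, EREG, AREG and TGFA, stacked in that order from the bottom, in each of the 6 samples. HBEGF is the largest part in 5 of 6 samples, and in TC replicate 1 AREG and EREG take 63.5% of the total.

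The feedback genes varied more between samples than between zones. DUSP6 (ENSG00000139318; chromosome 12, 89347232 to 89353271, minus strand), the cytoplasmic ERK phosphatase, was at 259.9, 249 and 105 TPM in TC. In TM it was at 176, 115 and 336 TPM, and each zone held both a high and a low sample. The means were 204 ± 86.6 and 209 ± 114 TPM (SD, n = 3), and the log2 difference was -0.0017 with SE 0.44 (adjusted p = 0.999 by limma). Its 95% interval, -1.01 to 1.01, was so wide that a change of 2-fold either way was not excluded. The difference was 0.42 without TC replicate 3, 0.41 without TM replicate 3, -0.82 without TM replicates 1 and 2, and 0.21 after median-of-ratios rescaling.

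SPRY4 (ENSG00000187678; chromosome 5, 142310427 to 142326455, minus strand), a Sprouty inhibitor of receptor tyrosine kinase signaling, was at 60.2, 57.5 and 33.8 TPM in TC and at 61.3, 46.4 and 92.6 TPM in TM. As with DUSP6, TM replicate 3 was highest and TC replicate 3 lowest, followed by TM replicate 2. The means were 50.5 ± 14.5 and 66.8 ± 23.5 TPM (SD, n = 3), and the log2 difference was -0.38 with SE 0.29 (adjusted p = 0.593 by limma). The difference was negative in 16 of 16 alternatives, but it was -0.12 without TC replicate 3 or TM replicate 3, -0.18 after median-of-ratios rescaling, -0.61 without TM replicate 2 and -0.91 without TM replicates 1 and 2. Antisense transcripts overlap both genes. ENSG00000274021, on the strand opposite DUSP6, was between 0.61 TPM (TC replicate 3) and 10.9 TPM (TM replicate 3), and SPRY4-AS1 was between 3.62 and 5.85 TPM, so their levels were small beside those of the members.

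SPRY2 (ENSG00000136158; chromosome 13, 80335976 to 80340951, minus strand) did not follow SPRY4. It was at 20.9, 14.9 and 15.4 TPM in TC and at 17.5, 16.6 and 16.8 TPM in TM, the narrowest range of the 10 genes (highest over lowest 1.40), the log2 difference being -0.0059 (SE 0.18 and adjusted p = 0.992 by limma, 95% interval -0.42 to 0.41). SPRED1 (ENSG00000166068; chromosome 15, 38252326 to 38357249, plus strand), which brings neurofibromin to RAS, was at 14.3, 7.06 and 7.50 TPM in TC and at 8.36, 8.41 and 6.50 TPM in TM (log2 difference 0.22 with SE 0.28, adjusted p = 0.767 by limma). Its higher TC mean rested on TC replicate 1, without which the log2 difference was -0.073.

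**Figure D3:**
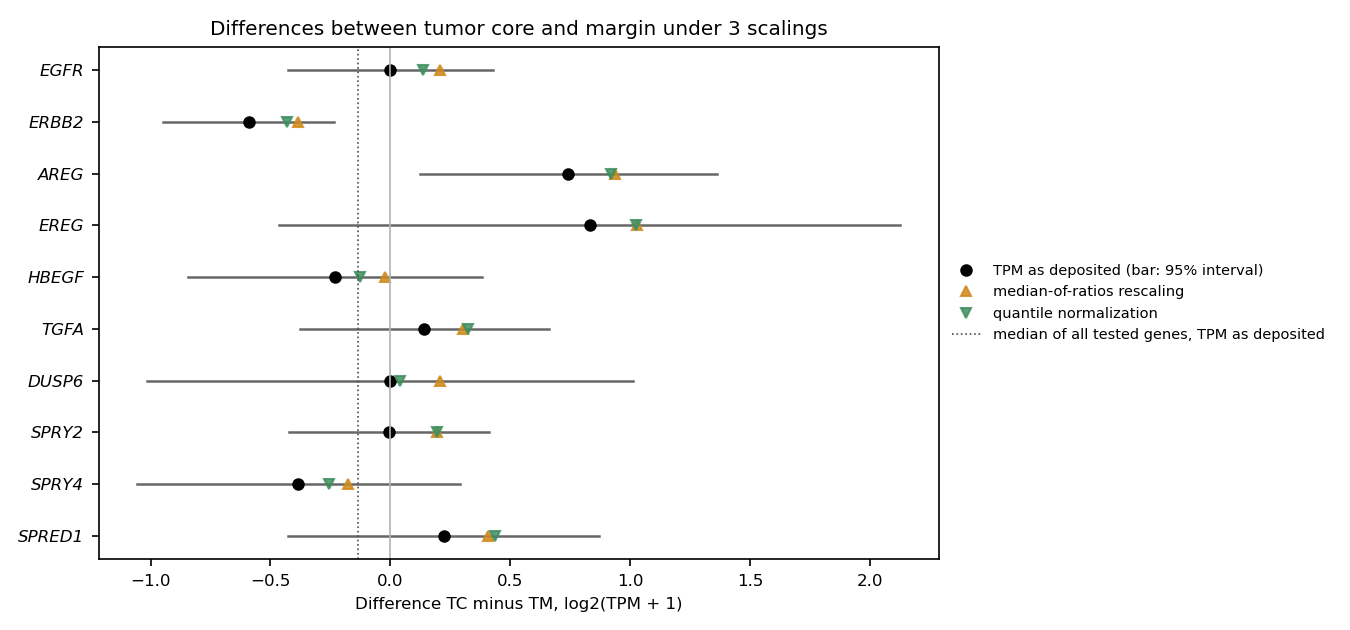
Difference between zones (TC minus TM, log2(TPM + 1)) of each member from TPM as deposited (black, with the 95% interval as a bar), after median-of-ratios rescaling (orange) and after quantile normalization (green); the dotted line is the median of all tested genes, -0.14. The intervals of ERBB2 and AREG exclude 0 before adjustment, and EGFR, DUSP6 and SPRY2 change sign with the scaling.

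The common order of DUSP6 and SPRY4 was followed into other genes that ERK induces. TC replicate 3 and TM replicate 2 were the 2 lowest samples in DUSP6 and SPRY4, and also in DUSP4, PHLDA1, ETV1 and CCND1. Margins were narrow for CCND1 (128 TPM in TM replicate 2, 130 in TM replicate 1) and ETV1 (14.4 TPM in TC replicate 3, 15.6 in TM replicate 3). These made 6 of 13 listed ERK output genes (46.2%), a share raised by DUSP6 and SPRY4 themselves, from which the order was taken. Of the 57 tested pathway genes that are not members, 9 had these 2 lowest samples (15.8%), near the 12.6% of all tested genes. DUSP4, a nuclear ERK phosphatase, was at 61.6, 56.6 and 21.2 TPM in TC and at 60.8, 31.5 and 53.7 TPM in TM. The related inhibitors SPRED2 (by a narrow margin) and SPRED3 had the same 2 lowest samples, and LRIG1, RASA1 and DUSP10 were the other pathway genes that did. By contrast FOSL1, ETV4 and EPHA2, also listed as ERK outputs, did not share this order. IER3, another immediate target, had the same 3 highest samples as AREG and EREG, at 260.1, 205 and 325 TPM in TC and 167, 319 and 203 TPM in TM. The order was noticed in the values, the 2 samples come from different zones, and no test was made of it.

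**Figure D4:**
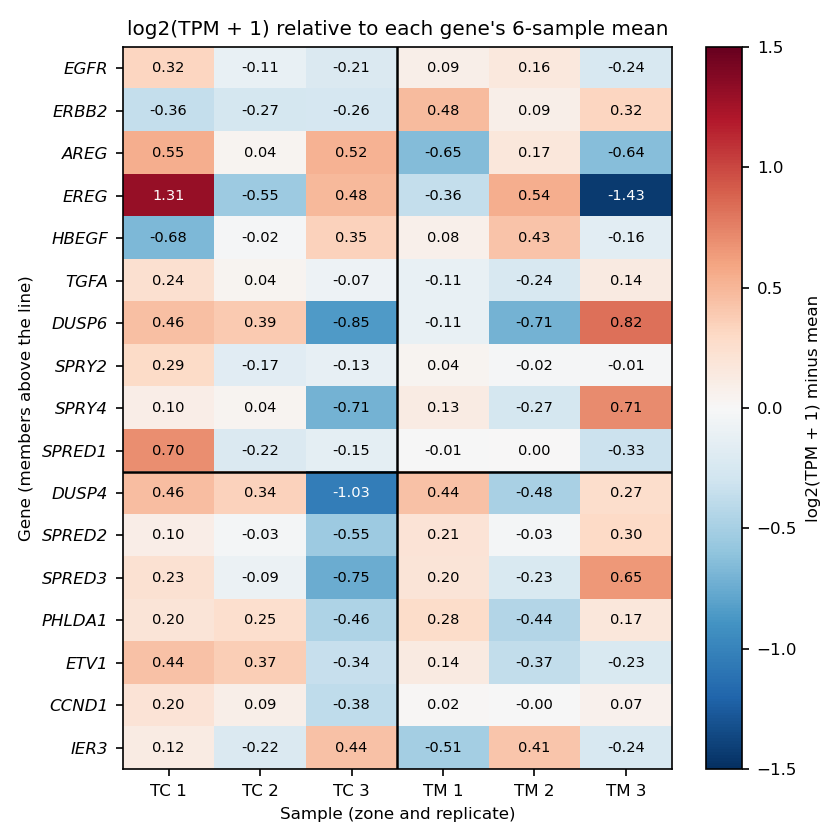
Colors and printed numbers give log2(TPM + 1) in each sample relative to the gene's mean over the 6 samples, for the 10 members (above the line) and 7 listed ERK output or inhibitor genes (below it). The genes below the line were picked because they shared a sample order with DUSP6 and SPRY4 or with AREG and EREG. Listed genes without such an order, among them FOSL1, ETV4 and EPHA2, are not shown. TC replicate 3 and TM replicate 2 are low in DUSP6, SPRY4 and DUSP4, whereas TC replicates 1 and 3 and TM replicate 2 are high in AREG and EREG.

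Genes with the most similar profiles were sought among tested genes with a mean of at least 5 TPM, by the root mean square difference of log2(TPM + 1) over the 6 samples after each gene was centered on its mean. For EGFR the nearest were EIF5 (0.0452), CAB39 (0.0530) and MAPK8 (0.0563), all 3 with small ranges like its own. For EREG, the member with the widest range (2.74 on the log2 scale), they were SOD2 (0.366), NNMT (0.381) and DDX60 (0.393). SOD2 was at 109.98, 46.4 and 105 TPM in TC and at 57.1, 112 and 38.4 TPM in TM. With 6 samples and so many genes, near profiles are a description only.

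The rest of the pathway was read from lists written from general knowledge. Of 66 further genes, 57 were tested, and none was called (limma, smallest adjusted p = 0.0843). Before adjustment 9 were under 0.05, all lower in TC, which is 15.8% beside 16.2% of all tested genes, and in all 41 were lower and 16 higher, with a median log2 difference of -0.17. The direction depended on the scaling, for at that level median-of-ratios rescaling left 3 lower and 5 higher and quantile normalization 5 lower and 2 higher. In TPM as deposited, every TC sample was below every TM sample in 11 of the 57 and above in 1. Of all tested genes, 18.9% and 3.28% were separated in these directions. Without TM replicates 1 and 2, the samples rich in muscle markers, 30 of 55 tested pathway genes were lower and 25 higher (median log2 difference -0.059). Of the genes described below, the difference was then smaller for LRIG2 (-0.96), HGS (-0.53), ARAF (-0.37) and DUSP7 (-0.31). It was larger for RHBDF1 (-1.10), RHBDF2 (-0.67), KSR1 (-0.95) and EPHA2 (-0.73).

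The other receptors were scarce. ERBB3, the usual partner of ERBB2, was at 0.89, 0.91 and 2.57 TPM in TC and at 1.56, 0.82 and 3.28 TPM in TM (log2 difference -0.21 with SE 0.39, adjusted p = 0.848 by limma), and ERBB4 did not exceed 0.13 TPM. Of 7 other ligands, NRG1, which binds ERBB3 and ERBB4, was the most abundant, at 9.90, 9.91 and 6.94 TPM in TC and 11.5, 11.0 and 9.22 TPM in TM (limma adjusted p = 0.657). Betacellulin (BTC) was at 2.34, 1.32 and 1.54 TPM in TC and 0.69, 1.02 and 1.04 TPM in TM, so that all TC samples were above all TM samples (3.28% of tested genes in this direction), the log2 difference being 0.50 (SE 0.25 and adjusted p = 0.392 by limma). NRG2 was between 1.70 and 4.29 TPM (limma adjusted p = 0.592). EGF (0.40 to 1.55 TPM), NRG4 (at most 0.37 TPM) and EPGN (at most 0.03 TPM) were too low to test, and NRG3 was listed at 0 in every sample.

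Of 5 tested genes of ligand shedding, both iRhom genes, which carry the protease ADAM17 to the cell surface, had an unadjusted p-value under 0.05. Of all tested genes 16.2% passed that level, and in 18.9% every TC sample was below every TM sample. RHBDF1 was at 15.1, 13.9 and 13.8 TPM in TC and at 20.5, 24.8 and 31.7 TPM in TM, without overlap (log2 difference -0.79 with SE 0.19, adjusted p = 0.109 by limma). RHBDF2 was at 20.3, 18.6 and 15.1 TPM in TC and at 26.5, 22.1 and 29.1 TPM in TM, also without overlap (log2 difference -0.50 with SE 0.18, adjusted p = 0.229 by limma). Its difference shrank to -0.30 after median-of-ratios rescaling, where its unadjusted p-value was no longer under 0.05. ADAM17 itself was between 16.8 and 27.4 TPM, with overlapping zones (limma adjusted p = 0.720).

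Among 10 genes that restrain or sort the receptor, HGS, a part of the machinery that directs ubiquitinated receptor to lysosomes, was at 119, 115 and 125 TPM in TC and at 173, 190.0 and 173 TPM in TM, without overlap (log2 difference -0.57 with SE 0.11, adjusted p = 0.0843 by limma). Such a separation, lower in TC, was found in 18.9% of all tested genes. After median-of-ratios rescaling the difference of HGS was -0.36 (adjusted p = 0.338 by limma). LRIG2, a transmembrane protein of the LRIG family, was at 5.96, 4.52 and 2.91 TPM in TC and at 9.98, 12.5 and 9.34 TPM in TM, the largest difference of the pathway genes tested (log2 difference -1.12 with SE 0.26, adjusted p = 0.101 by limma). ERRFI1, an inhibitor of the EGFR kinase, was far more abundant than either receptor, at 538, 527 and 484 TPM in TC and at 503, 417 and 473 TPM in TM (log2 difference 0.16, limma adjusted p = 0.600).

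In the cascade from RAS to ERK, 3 of 19 genes had an unadjusted p-value under 0.05, a level that 16.2% of all tested genes passed. Among the 3 were ARAF, a kinase of the RAF family (log2 difference -0.52 with SE 0.16, adjusted p = 0.161 by limma), and the scaffold KSR1 (log2 difference -0.62 with SE 0.23, adjusted p = 0.237 by limma). ARAF was at 17.2, 20.6 and 19.5 TPM in TC and at 28.6, 30.1 and 24.9 TPM in TM, without overlap. KSR1 was at 5.53, 4.59 and 4.77 TPM in TC and at 7.53, 6.74 and 10.5 TPM in TM, also without overlap. Of all tested genes 18.9% were separated in this direction. Neither gene kept an unadjusted p-value under 0.05 after median-of-ratios rescaling. The mutated kinase BRAF was lower in level and overlapped between zones, with 7.77, 5.61 and 3.72 TPM in TC and 6.48, 4.68 and 3.72 TPM in TM (log2 difference 0.15 with SE 0.30, adjusted p = 0.858 by limma). MAPK3, which encodes ERK1, was between 53.5 and 66.5 TPM, with a log2 difference of -0.054 and SE 0.15 (adjusted p = 0.900 by limma).

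Of 7 other dual-specificity phosphatases tested, DUSP7 had an unadjusted p-value under 0.05, at 23.9, 26.3 and 21.8 TPM in TC and 33.8, 30.2 and 29.9 TPM in TM (log2 difference -0.37 with SE 0.15, adjusted p = 0.271 by limma). After median-of-ratios rescaling the difference of DUSP7 was -0.17, no longer under that level. SPRED2 had the lowest p-value of the 3 other Sprouty and SPRED genes tested, at 35.9, 32.8 and 22.6 TPM in TC and 38.8, 32.8 and 41.6 TPM in TM (log2 difference -0.32 with SE 0.20, adjusted p = 0.500 by limma). Among the 13 ERK output genes, a list that holds DUSP6, SPRY2 and SPRY4 as well, EPHA2 had an unadjusted p-value under 0.05, at 85.1, 136 and 96.3 TPM in TC and 142, 141 and 173 TPM in TM (log2 difference -0.54 with SE 0.19, adjusted p = 0.213 by limma), with no overlap between zones, like 18.9% of all tested genes in this direction. The difference of EPHA2 was -0.33 after median-of-ratios rescaling, also no longer under that level. The median log2 difference of these 13 genes was -0.056.

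**Figure D5:**
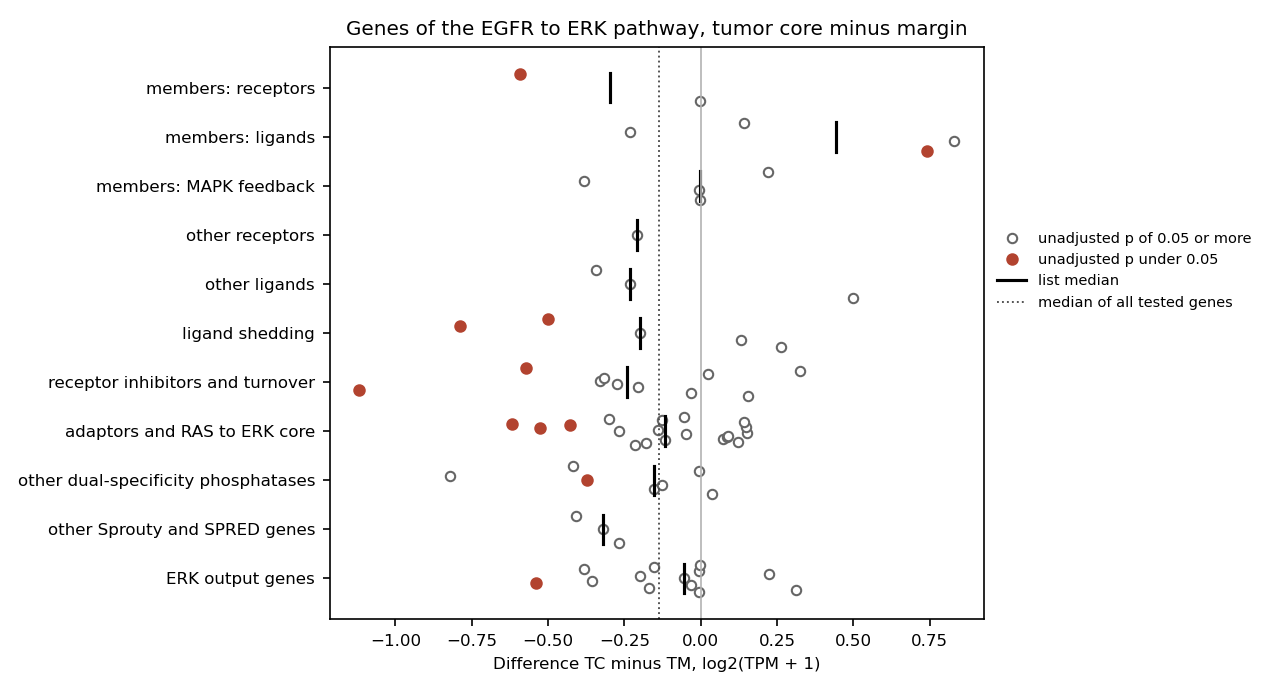
Difference between zones (TC minus TM, log2(TPM + 1)) of every tested gene of the members and of the pathway lists; filled points have an unadjusted p-value under 0.05, black bars are list medians and the dotted line is the median of all tested genes, -0.14. AREG is the only filled point to the right of 0, and the other 10 filled points lie to its left.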

How the data were processed

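RNA-seq libraries of 3 TC and 3 TM samples were compared, grouped by sample title. The authors deposited TPM per gene. Per the study's methods and the submitters' processing notes, trimming used SeqPrep and Sickle, and reads were aligned to hg38 by HISAT2, assembled with StringTie and quantified with RSEM. The annotation release is not given in the sources used here. The depth per sample is unknown, since TPM does not preserve it, and precision was judged from the spread between replicates. Columns summed to 1000000, except 994381 in TM replicate 3. The study gives 3 mice per group and states no pairing of zones for these libraries, although it used paired tests for core and margin in other assays. The p-values here treat the 6 samples as unpaired and set each difference against the spread within zones.

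Symbols came from an Ensembl table and positions from GENCODE v29. The 259 loci outside the annotation were left out. The comparison of the zones used limma (version 3.58.1, under R 4.3.3) on log2(TPM + 1), without covariates, with a mean-variance trend, two-sided, and Benjamini-Hochberg adjustment over the 13861 genes at 1 TPM or more in 3 or more samples. The fit was tested on simulated data. The genes and lists were chosen with earlier results of these data known. All 10 members are named, and of each list those under 0.05 before adjustment or, failing any, the one with the lowest p-value, and the 3 genes most like EGFR and EREG, besides ERBB3, ERBB4, all other ligands, BRAF and MAPK3. Some genes that this rule names are not reported here. Genes named outside this rule, namely those of the shared sample order, SPRY4-AS1 and the other overlapping genes, ADAM17 and ERRFI1, were chosen after their values were seen. Promoter motifs were searched in the 250 bases before each RefSeq start. The alternatives covered the pseudocount, filter, scaling, moderation, replicate block and samples left out.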

Additional observations from a re-analysis of the deposited data

How the results depend on the processing

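The number of genes called between TC and TM was 19 and moved to 7 with a pseudocount of 0.1, 1 without a filter, 4 after quantile normalization, 6 after median-of-ratios rescaling, 12 without the mean-variance trend, 47 with robust moderation and 0 to 17 when 1 sample was left out (0 without TC replicate 3). The cause was not tested. It was 16 with a mean of at least 5 TPM and 26 without mitochondrially encoded genes. The 10 members gave 0 calls in each of these analyses (limma, smallest adjusted p = 0.0881, for ERBB2 without mitochondrially encoded genes). The number of members with an unadjusted p-value under 0.05 was 2 and ranged from 1 to 3 when 1 sample was left out; ERBB2 was among them each time, AREG was lost without TC replicate 1 or 3 or TM replicate 1 or 3, and EREG was added without TC replicate 2 or TM replicate 2. The replicate numbers were not treated as pairs. The labels tie no number to a tumor, and deviations of same-numbered samples correlated at 0.211, -0.121 and -0.165 over genes and TC replicates 2 and 3 correlated best with another number. These values do not show whether numbers mark shared tumors. With the replicate block 1 gene was called, and 1 member (ERBB2) and not AREG had an unadjusted p-value under 0.05. DUSP7 then had an unadjusted p-value of 0.0600.

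ERBB2, AREG, EREG and SPRY4 kept their direction in all 16 alternatives. Others reversed. The log2 difference of EGFR was 0.14 after quantile normalization, 0.21 after median-of-ratios rescaling and -0.16 to 0.11 with 1 sample left out. For DUSP6 these values were 0.040, 0.21 and -0.36 to 0.42, and for SPRY2 0.20, 0.19 and -0.15 to 0.077. With 1 sample left out HBEGF ranged from -0.46 to 0.050 and SPRED1 from -0.073 to 0.39. An analysis without TM replicates 1 and 2, chosen after the muscle markers were seen, leaves 1 TM sample that is assumed to vary like the TC samples. It gave 257 called genes, 0 called members and 4 members with an unadjusted p-value under 0.05 (ERBB2, AREG, EREG and SPRY4), with reversed log2 differences of 0.24 for EGFR, 0.048 for HBEGF, -0.064 for TGFA and 0.0096 for SPRY2. TGFA could not be tested with a mean of at least 5 TPM. With 3 samples a zone, the 95% intervals that include 0 do not exclude changes of either direction within them.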
